A study of Mus musculus with 12 samples.

Results

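The genes described here are 32 mouse genes of sterol and fatty acid synthesis, taken by their symbols from a given list and matched to the rows of a count table that holds 46983 gene identifiers. All 32 symbols matched exactly 1 identifier, and all 32 passed the filter on low counts that left 14153 genes for testing. By role, 7 of them encode enzymes of the mevalonate route to isoprenoids, 11 encode enzymes that turn isoprenoids into squalene and sterols, 6 encode regulators of the pathway or a sterol carrier, and 8 encode enzymes of fatty acid synthesis, elongation and desaturation.

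Cells make cholesterol from acetyl-CoA. The mevalonate route builds isoprenoid units, which are joined to squalene, closed to lanosterol and trimmed to cholesterol. Fatty acids are made from the same precursor: Acly supplies cytosolic acetyl-CoA, Acaca makes malonyl-CoA, Fasn assembles palmitate, Elovl6 lengthens it, and Scd and Fads enzymes add double bonds. Transcription of both branches is driven by the SREBP factors (Srebf1, Srebf2), which Scap escorts to the Golgi for cleavage when sterols are low and which Insig proteins hold back in the endoplasmic reticulum when sterols are high. In osteoclasts, the multinucleated cells that resorb bone, cell fusion and survival depend on membrane cholesterol, and prenylation through the mevalonate route is what nitrogen-containing bisphosphonates block, at the enzyme encoded by Fdps.

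RNA was sequenced from osteoclasts grown in vitro from bone marrow monocytes of Mincle knockout mice (KO, on a C57BL/6 background) or of wildtype C57BL/6 mice (WT), all cultured with 20 ng/ml of M-CSF and 10 ng/ml of RANKL. On day 1 the cells received, at a ratio of 1:2 and for 24 h, supernatant of osteocytes made necrotic by serum starvation or of viable osteocytes, and RNA was taken on day 3. The 4 groups, KO necrotic, KO viable, WT necrotic and WT viable, held 3 libraries each, and the labels do not say whether these came from separate mice or cultures. The spread that the p-values rest on may therefore be only technical. No group received starved medium without cells, so products of necrotic cells cannot be told apart from a change in serum or from the loss of something viable osteocytes release. The deleted part of the Mincle gene and the age of the mice do not appear in the labels. The comparisons ask whether osteoclasts change these genes under necrotic supernatant, and whether Mincle is needed for that.

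Libraries held between 16382366 counts (KO viable 2) and 49612055 counts (WT viable 3), with 25429661 in the next deepest. Levels are given as counts-per-million (CPM) scaled with TMM factors. Clec4e, the gene of Mincle, lay between 1.56 and 2.43 CPM in the 6 KO libraries and between 21.9 and 27.8 CPM in the 6 WT libraries (log2 fold change KO over WT -3.67, SE 0.106, adjusted p = 2.40e-12). Of the 10 osteoclast markers examined, among them Acp5 and Ctsk, none was at 0 in any library, and their summed level lay between 15465 and 23392 CPM. Markers of other cell types were also present. Over 8 genes each, macrophage markers summed to between 5788 and 7464 CPM and neutrophil markers to between 885 and 1256 CPM. Adipocyte markers, the cell type best known for fatty acid synthesis, summed to between 0.0900 and 0.335 CPM over 6 genes. Lep was at 0 in all 12 libraries, Adipoq, Plin1, Cidec and Cfd were at 0 in 7 to 10, and Retn was at 0 in none (0.0415 to 0.279 CPM). Osteocyte markers summed to between 0.117 and 0.483 CPM over 5 genes. Mepe and Fgf23 were at 0 in all 12 libraries, while Phex was at 0 in none (0.0584 to 0.375 CPM).

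One library stood apart for the genes of interest. WT viable 2 held the highest level of all 12 libraries for 13 of the 32 genes and the highest of its own group for 21, while it was highest of its group for 30.8% of all tested genes. The summed level of the 32 genes was 1703 CPM in WT viable 2, against 1528 and 1567 CPM in the other WT viable libraries. In the remaining groups the sums were 1572, 1542 and 1538 CPM in KO necrotic, 1633, 1559 and 1573 CPM in KO viable and 1491, 1540 and 1548 CPM in WT necrotic. Calls among the 32 genes that were lost without this library are named with their values.

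The 32 genes covered a wide range of levels. Compared per kilobase of principal transcript, Acly (49.7 CPM per kb averaged over the 12 libraries) and Scd2 (47.8 CPM per kb), a stearoyl-CoA desaturase gene, were the most abundant, followed by Ebp, a sterol isomerase gene (35.4 CPM per kb), Insig1 (31.9 CPM per kb), Srebf2 (29.7 CPM per kb) and Fads1, the delta-5 desaturase gene (26.5 CPM per kb). Fasn reached 5.38 CPM per kb and Acaca 3.74 CPM per kb, since both have long transcripts (10050 and 9513 bases). Scd1 (1.65 CPM per kb) stood far below its neighbour Scd2 on chromosome 19. The lowest were Hsd17b7, a sterol ketoreductase gene (1.37 CPM per kb), and Fdps (0.798 CPM per kb). The level of Fdps is uncertain: 26.7% of its annotated exon bases also lie under a predicted gene on the same strand, and how the counting treated such reads is not given in the sources used here. The same holds for Tm7sf2, a sterol reductase gene that shares 12.1% of its exon bases with Vps51 on the same strand, and, without a stated strand setting, for Fdft1, the squalene synthase gene, which shares 18.3% with the abundant protease gene Ctsb on the opposite strand.

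**Figure D1:**
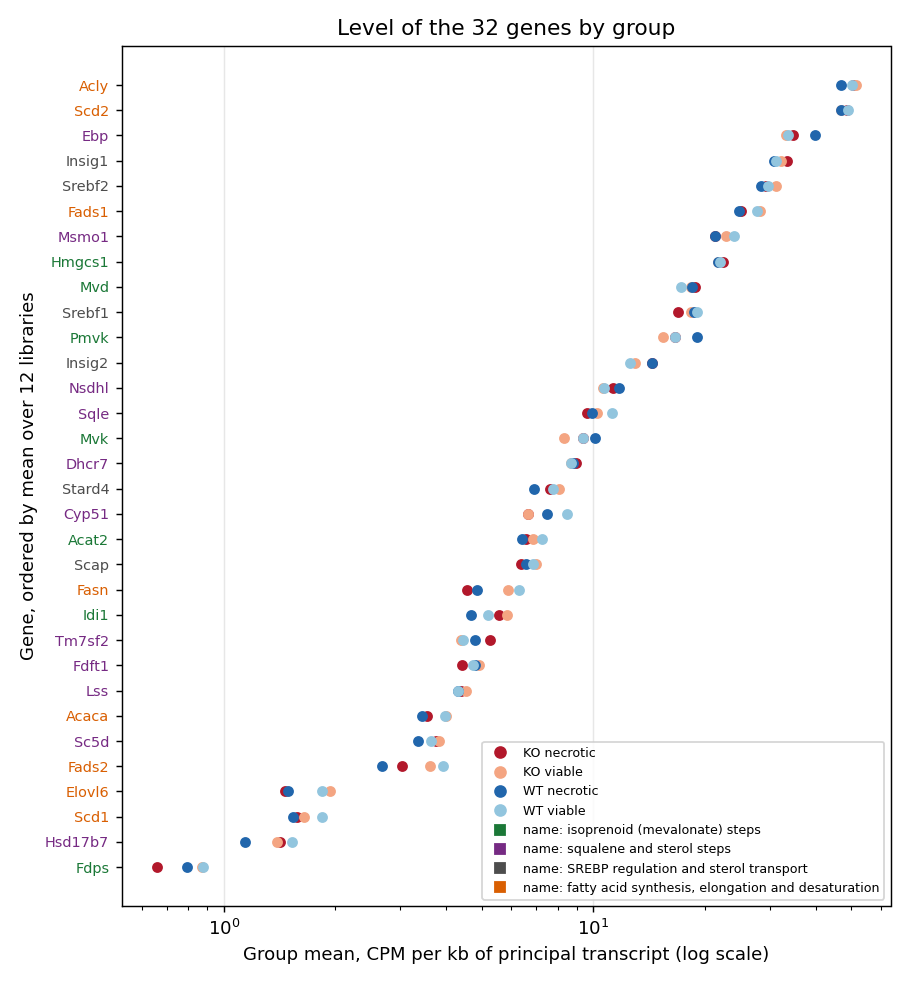
Group mean of each of the 32 genes in CPM per kilobase of principal transcript (log axis), 1 row per gene, ordered by the mean over the 12 libraries, with 1 dot for each group of 3 libraries and gene names coloured by role. Acly and Scd2 lie at the top, Fdps at the bottom, and the dots of necrotic and viable groups separate for Fasn, Fads2 and Elovl6.

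Under necrotic supernatant, 5 of the 8 genes of fatty acid synthesis and desaturation were lower in the average over both genotypes, and most sterol synthesis genes did not pass the test. Averaged over both genotypes (6 necrotic against 6 viable libraries), 10 of the 32 genes passed the adjusted p of 0.05, a share of 31.2% beside 19.4% of all 14153 genes tested. Of these, 7 fell (21.9% of the 32, beside 9.93% of all genes lower) and 3 rose (9.38%, beside 9.49% of all genes higher). The genes that fell were Fasn, Elovl6, Fads2, Fads1, Acaca, Msmo1 and Stard4, and those that rose were Insig2, Ebp and Pmvk. Every change was small, with log2 fold changes from -0.40 to 0.16 among the 10, and the median over the 32 genes was -0.080, beside -0.0027 over all genes. Without WT viable 2, 3 genes fell (Fasn, Elovl6 and Fads2) and 1 rose (Insig2). The estimates of the genes that no longer passed were then -0.16 for Acaca, -0.14 for Fads1, -0.12 for Msmo1, -0.12 for Stard4, 0.15 for Pmvk and 0.16 for Ebp, with adjusted p between 0.0602 (Ebp) and 0.111 (Acaca). Leaving out other single libraries gave between 3 and 8 genes lower and between 1 and 3 higher, and the averaged fall of Fasn, Elovl6 and Fads2 and the averaged rise of Insig2 passed in all 19 alternative analyses of that average.

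Within a single genotype the share of called genes was near the background. In KO cells 2 genes fell, Fasn and Elovl6, and none rose, 6.25% of the 32 beside 7.43% of all genes (3.43% lower). Among the estimates above 0 in KO cells, Tm7sf2 and Insig2 had an unadjusted p under 0.05 (0.0287 and 0.0299), and DESeq2 and limma voom also called 0 higher. In WT cells 2 fell, Fasn and Fads2, and Ebp rose, 9.38% of the 32 beside 9.31% of all genes (4.50% lower and 4.81% higher). The 3 necrotic libraries lay wholly below the 3 viable ones for 7 genes in KO cells and for 4 in WT cells, where 14.9% and 12% of all tested genes did so. They lay wholly above for 3 genes in each genotype, where 16.5% of all genes in KO cells and 12.4% in WT cells did so.

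RNA came from whole cultures, in which fewer cells of a type and less RNA per cell cannot be told apart. Osteoclast markers moved in the same comparison: 10 of 10 rose averaged over both genotypes, and they summed to between 19580 and 20390 CPM in KO necrotic and between 15465 and 15778 CPM in KO viable libraries, and to between 22105 and 23392 CPM in WT necrotic and between 17498 and 17829 CPM in WT viable libraries. Stromal and osteoblast markers, such as the collagen gene Col1a1, were lower for 4 of 5 tested genes, with sums of 13.6 to 36.1 CPM in KO necrotic, 15.8 to 46.5 CPM in KO viable, 34.4 to 51.5 CPM in WT necrotic and 66.4 to 101 CPM in WT viable libraries. Of 5 tested B and plasma cell markers 3 were lower, as were 3 of 6 dendritic cell markers. Of 8 neutrophil markers 4 were lower and 1 was higher, and of 8 macrophage markers 5 were higher and 1 was lower. Over all genes tested, 9.49% were higher and 9.93% lower in this average. The part of these cell types in the changes of the 32 genes was not tested.

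**Figure D2:**
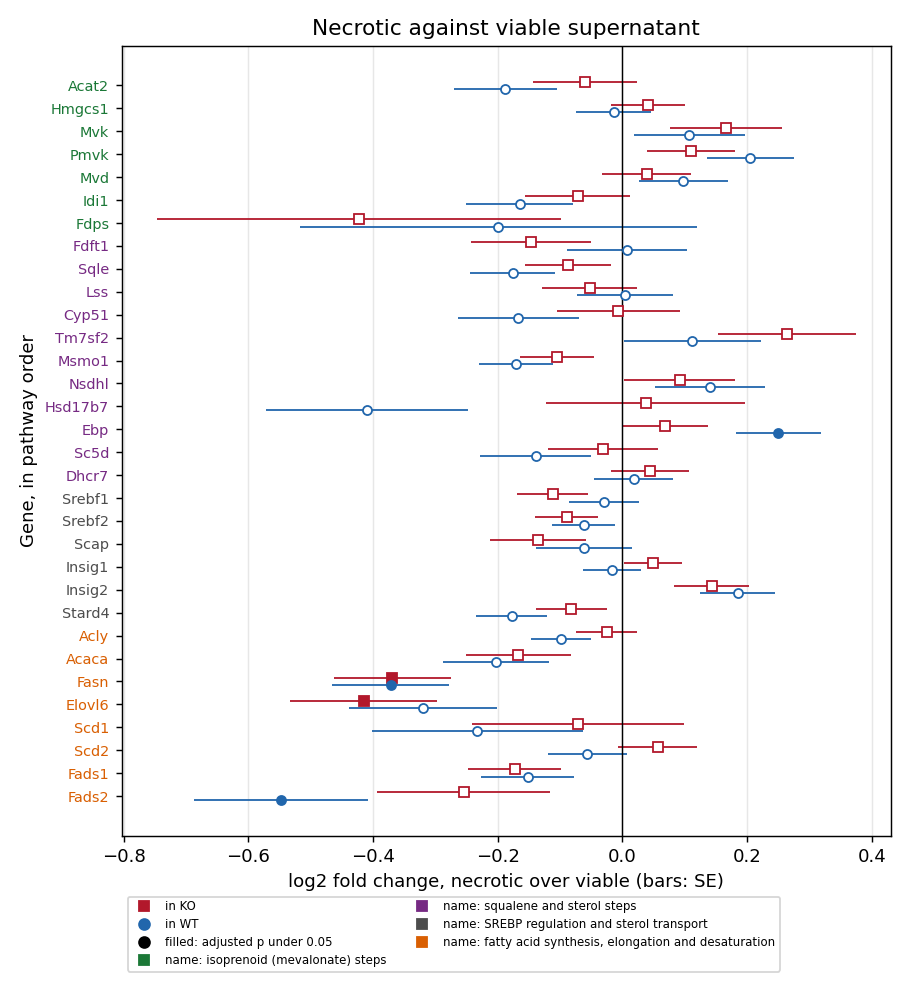
Log2 fold change of necrotic over viable supernatant for each of the 32 genes in KO cells (red squares) and WT cells (blue circles), with bars for the SE and filled symbols for an adjusted p under 0.05 in edgeR's quasi-likelihood test. All 8 fatty acid genes at the bottom lie left of 0 in WT cells and 7 of 8 in KO cells, while the mevalonate and sterol genes scatter on both sides.

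Among the 8 fatty acid genes, 5 fell (62.5%, beside 9.93% of all genes) and 0 rose (beside 9.49%) averaged over both genotypes, and the median log2 fold change was -0.17. Within genotypes the median was -0.17 in KO cells, with 7 of 8 estimates below 0, and -0.22 in WT cells, with 8 of 8 below 0. Their summed level was 695, 665 and 677 CPM in KO necrotic libraries and 723, 695 and 702 CPM in KO viable libraries. It was 625, 653 and 683 CPM in WT necrotic libraries and 665, 780 and 702 CPM in WT viable libraries. In KO cells the highest necrotic and the lowest viable sum were both 695 CPM at the precision given. The WT sums overlapped, with the highest value again in WT viable 2. Acly and Scd2 made up most of each sum.

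Fasn encodes fatty acid synthase and lies at chr11:120805846-120824547 on the minus strand of GRCm38. It was at 45.5, 44.9 and 46.8 CPM in KO necrotic libraries and at 63.3, 57.8 and 56.2 CPM in KO viable libraries. In WT cells it was at 47.5, 44.3 and 53.7 CPM under necrotic and at 53.1, 73.2 and 62.7 CPM under viable supernatant. All KO necrotic libraries lay below all KO viable ones, and in WT cells the highest necrotic library passed the lowest viable one by a small margin. Fasn fell by 0.37 on the log2 scale in KO cells (SE 0.0945, adjusted p = 0.0277), by 0.37 in WT cells (SE 0.0941, adjusted p = 0.0236) and by 0.37 averaged over both (SE 0.0667, adjusted p = 0.00134). The call in WT cells was lost in 5 of 20 alternative analyses: without WT viable 2 (-0.26, adjusted p = 0.122), WT necrotic 2 (-0.31, adjusted p = 0.110), WT viable 3 (adjusted p = 0.0650) or WT necrotic 1 (adjusted p = 0.0534), and with only the WT groups in the fit (adjusted p = 0.0958). The call in KO cells needed all 6 KO libraries: removing any of them ended it (adjusted p up to 0.113).

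Elovl6, the elongase gene for palmitate, lies at chr3:129532355-129638495 on the plus strand. It was at 9.69, 7.80 and 8.55 CPM in KO necrotic libraries and at 11.8, 10.5 and 12.5 CPM in KO viable libraries, without overlap. The WT levels were 8.52, 9.03 and 9.0 CPM under necrotic supernatant and 9.01, 11.7 and 12.1 CPM under viable supernatant, where 1 viable library was as low as the necrotic ones. Elovl6 fell by 0.42 on the log2 scale in KO cells (SE 0.118, adjusted p = 0.0444), a call that was lost in 9 of 20 alternative analyses, among them without any 1 of the 6 KO libraries and without WT viable 2 (-0.42, adjusted p = 0.0572). Averaged over both genotypes it fell by 0.37 (SE 0.0837, adjusted p = 0.00654), and in WT cells the log2 fold change was -0.32 (SE 0.119, adjusted p = 0.102).

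Fads2 and Fads1 encode the delta-6 and delta-5 desaturases of polyunsaturated fatty acids and lie near each other on chromosome 19, Fads2 at chr19:10062765-10101746 and Fads1 at chr19:10182888-10196877. Fads2 was at 10.1, 8.89 and 9.67 CPM in KO necrotic libraries and at 11.8, 10.4 and 12 CPM in KO viable libraries. WT libraries held 8.09, 10.5 and 6.63 CPM under necrotic and 12.8, 13.5 and 10.7 CPM under viable supernatant. The groups did not overlap in either genotype, although the spread among WT necrotic libraries was wide. Fads2 fell by 0.55 on the log2 scale in WT cells (SE 0.140, adjusted p = 0.0245) and by 0.40 averaged over both genotypes (SE 0.0984, adjusted p = 0.0101), and its log2 fold change in KO cells was -0.26 (SE 0.138, adjusted p = 0.301). The call in WT cells was lost in 4 of 20 alternative analyses: without WT viable 2 (-0.48, adjusted p = 0.103), WT necrotic 3 (-0.39, adjusted p = 0.0822) or WT necrotic 1 (-0.53, adjusted p = 0.0540), and with only the WT groups in the fit (-0.54, adjusted p = 0.0961).

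Fads1, present at a higher level, was at 87.7, 90.2 and 82.5 CPM in KO necrotic libraries and at 108, 94.3 and 91.5 CPM in KO viable libraries. The WT libraries were at 77.8, 92.7 and 86.9 CPM under necrotic and at 95.9, 103 and 88.2 CPM under viable supernatant. The KO groups were apart and the WT groups overlapped. Fads1 fell by 0.16 averaged over both genotypes (SE 0.0527, adjusted p = 0.0415), and this call was lost in 9 of 19 alternative analyses, all of them single libraries left out.

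Acaca, which encodes the carboxylase that commits acetyl-CoA to fatty acids, was at 34.1, 34.4 and 32.8 CPM in KO necrotic libraries and at 37.2, 38.4 and 38.1 CPM in KO viable libraries. In WT cells the values were 29.3, 31.8 and 37.1 CPM under necrotic and 33.2, 41.3 and 38.8 CPM under viable supernatant. The KO groups were apart, while the WT groups overlapped. Averaged over both genotypes Acaca fell by 0.19 (SE 0.0598, adjusted p = 0.0411), a call lost in 11 of 19 alternative analyses, among them removal of the trends with transcript length and GC content (log2 fold change -0.0896, adjusted p = 0.163). The remaining fatty acid genes did not pass. Acly had a log2 value of -0.062 averaged over both genotypes (SE 0.0342, adjusted p = 0.227), Scd1 of -0.15 (SE 0.120, adjusted p = 0.411), and Scd2 of 9.19e-06 (SE 0.0449, 95% interval -0.096 to 0.096).

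**Figure D3:**
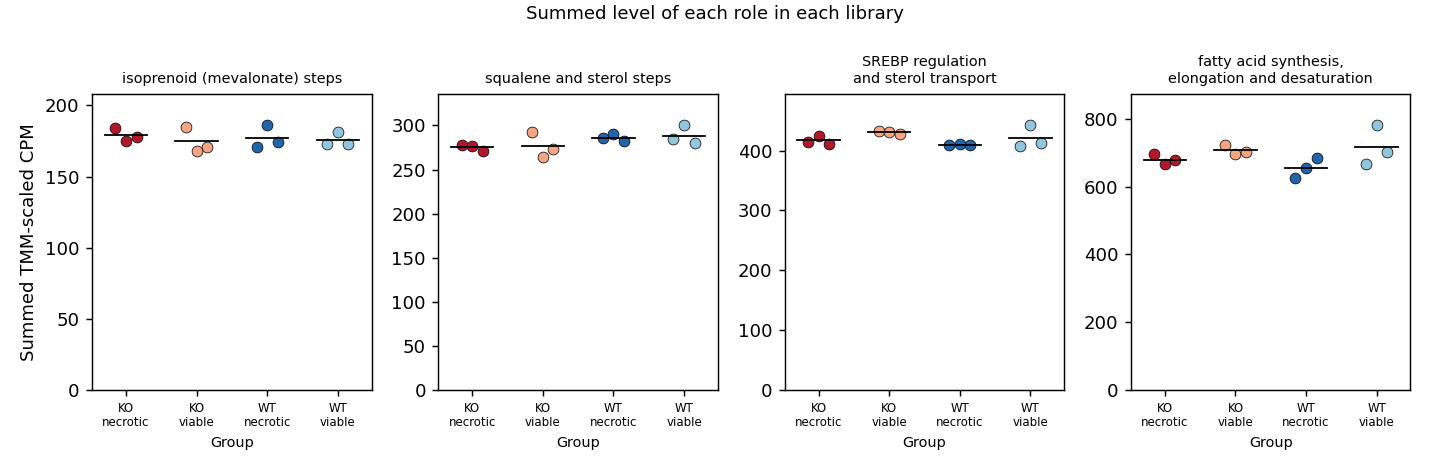
Summed TMM-scaled CPM of the genes of each role in each library, with a bar for the group mean, in 4 panels for the 7 mevalonate genes, the 11 squalene and sterol genes, the 6 regulators and carriers and the 8 fatty acid genes. In the fatty acid panel the WT groups overlap, with WT viable 2 highest at 780 CPM, and the KO groups meet at 695 CPM. The mevalonate sums stay between 168 and 186 CPM in all 12 libraries.

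The 7 mevalonate genes had a median log2 fold change of 0.013 averaged over both genotypes, and 1 rose (14.3%, beside 9.49% of all genes), Pmvk, the phosphomevalonate kinase gene. Pmvk was at 20.1, 19.8 and 19.8 CPM in KO necrotic libraries and at 19.5, 17.2 and 18.5 CPM in KO viable libraries. In WT cells it was at 21.4, 24.0 and 22.9 CPM under necrotic and at 20.8, 19.4 and 19.3 CPM under viable supernatant. Necrotic libraries were above viable ones without overlap in each genotype, and the averaged rise was 0.16 (SE 0.050, adjusted p = 0.0379), a call lost in 13 of 19 alternative analyses, among them removal of the trends with transcript length and GC content (0.10, adjusted p = 0.185). Hmgcs1, an early mevalonate gene and a classical SREBP target, averaged 77.8 ± 1.40 CPM in KO necrotic and 75.6 ± 4.82 CPM in KO viable libraries, and 75.5 ± 4.29 CPM in WT necrotic and 76.4 ± 5.18 CPM in WT viable libraries (SD, n = 3 each). Its log2 fold change averaged over both genotypes was 0.013, with a 95% interval from -0.077 to 0.10. Acat2, Mvk, Mvd, Idi1 and Fdps had averaged log2 fold changes between -0.31 (Fdps, SE 0.227) and 0.14 (Mvk, SE 0.0634), and none passed.

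Of the 11 genes for squalene and sterol steps, 1 rose and 1 fell averaged over both genotypes, 9.09% each and near the share of all genes (9.49% higher, 9.93% lower), and the median was -0.070. Ebp, whose product shifts a double bond in the sterol ring, was at 57.7, 63.7 and 60.6 CPM in KO necrotic libraries and at 64.0, 55.0 and 54.5 CPM in KO viable libraries. The WT levels were 65.6, 74.4 and 68.5 CPM under necrotic and 60.8, 59.2 and 55.8 CPM under viable supernatant. The WT groups were apart and the KO groups overlapped. Ebp rose by 0.25 in WT cells (SE 0.0681, adjusted p = 0.0320) and by 0.16 averaged over both genotypes (SE 0.0483, adjusted p = 0.0310), and in KO cells its log2 fold change was 0.068 (SE 0.0686, adjusted p = 0.620). The call in WT cells was lost in 6 of 20 alternative analyses, among them without WT viable 2 (log2 fold change 0.26, adjusted p = 0.0988). The averaged call was lost in 8 of 19. Both calls were lost with the trends with transcript length and GC content removed.

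Msmo1, a sterol C4-methyl oxidase gene, was at 46.3, 40.9 and 43.1 CPM in KO necrotic libraries and at 49.3, 46.3 and 44.8 CPM in KO viable libraries. WT libraries held 44.2, 43.3 and 43.4 CPM under necrotic and 48.2, 52.0 and 47.5 CPM under viable supernatant. The WT groups were apart and the KO groups overlapped. Averaged over both genotypes Msmo1 fell by 0.14 (SE 0.0424, adjusted p = 0.0327), a call lost in 8 of 19 alternative analyses. The other 9 sterol genes did not pass in any comparison of supernatants. Sqle, the squalene epoxidase gene and a rate-limiting step of sterol synthesis, had an averaged log2 fold change of -0.13 (SE 0.0484, adjusted p = 0.0692), Cyp51 of -0.087 (SE 0.0692), Lss of -0.024 (SE 0.0542) and Dhcr7, which acts last in 1 branch of the pathway, of 0.031 (SE 0.0447).

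Among the 6 regulators and carriers, Insig2 rose and Stard4 fell, 16.7% each (beside 9.49% of all genes higher and 9.93% lower). Insig2 encodes an endoplasmic reticulum protein that retains the Scap-SREBP complex, and lies at chr1:121304353-121332589 on the minus strand. It was at 38.6, 39.0 and 38.6 CPM in KO necrotic libraries and at 36.1, 36.0 and 33.3 CPM in KO viable libraries. The WT libraries were at 38.9, 37.5 and 39.8 CPM under necrotic and at 34.9, 31.4 and 35.6 CPM under viable supernatant. All 6 necrotic libraries lay above all 6 viable ones, which held for 1 of the 32 genes in this direction and for 3.14% of all genes tested. None of the 32 had all 6 necrotic libraries below all 6 viable ones, where 2.11% of all genes did. Insig2 rose by 0.16 averaged over both genotypes (SE 0.0423, adjusted p = 0.0135), with log2 fold changes of 0.14 in KO cells (SE 0.0598, adjusted p = 0.170) and 0.19 in WT cells (SE 0.0598, adjusted p = 0.0638) that did not pass alone.

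Stard4, the gene of a soluble sterol carrier, was at 38.8, 38.9 and 38.8 CPM in KO necrotic libraries and at 42.2, 38.8 and 42.2 CPM in KO viable libraries. In WT cells the values were 35.9, 35.5 and 34.0 CPM under necrotic and 37.4, 41.7 and 39.9 CPM under viable supernatant. The WT groups were apart and the KO groups overlapped, and the averaged fall of 0.13 (SE 0.0402, adjusted p = 0.0344) was lost in 11 of 19 alternative analyses. The SREBP genes and the rest of the SREBP machinery did not pass. The averaged log2 fold changes were -0.071 for Srebf1 (95% interval -0.16 to 0.014), -0.076 for Srebf2 (-0.15 to 0.00017), -0.099 for Scap (-0.21 to 0.017) and 0.016 for Insig1 (-0.054 to 0.087).

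**Figure D4:**
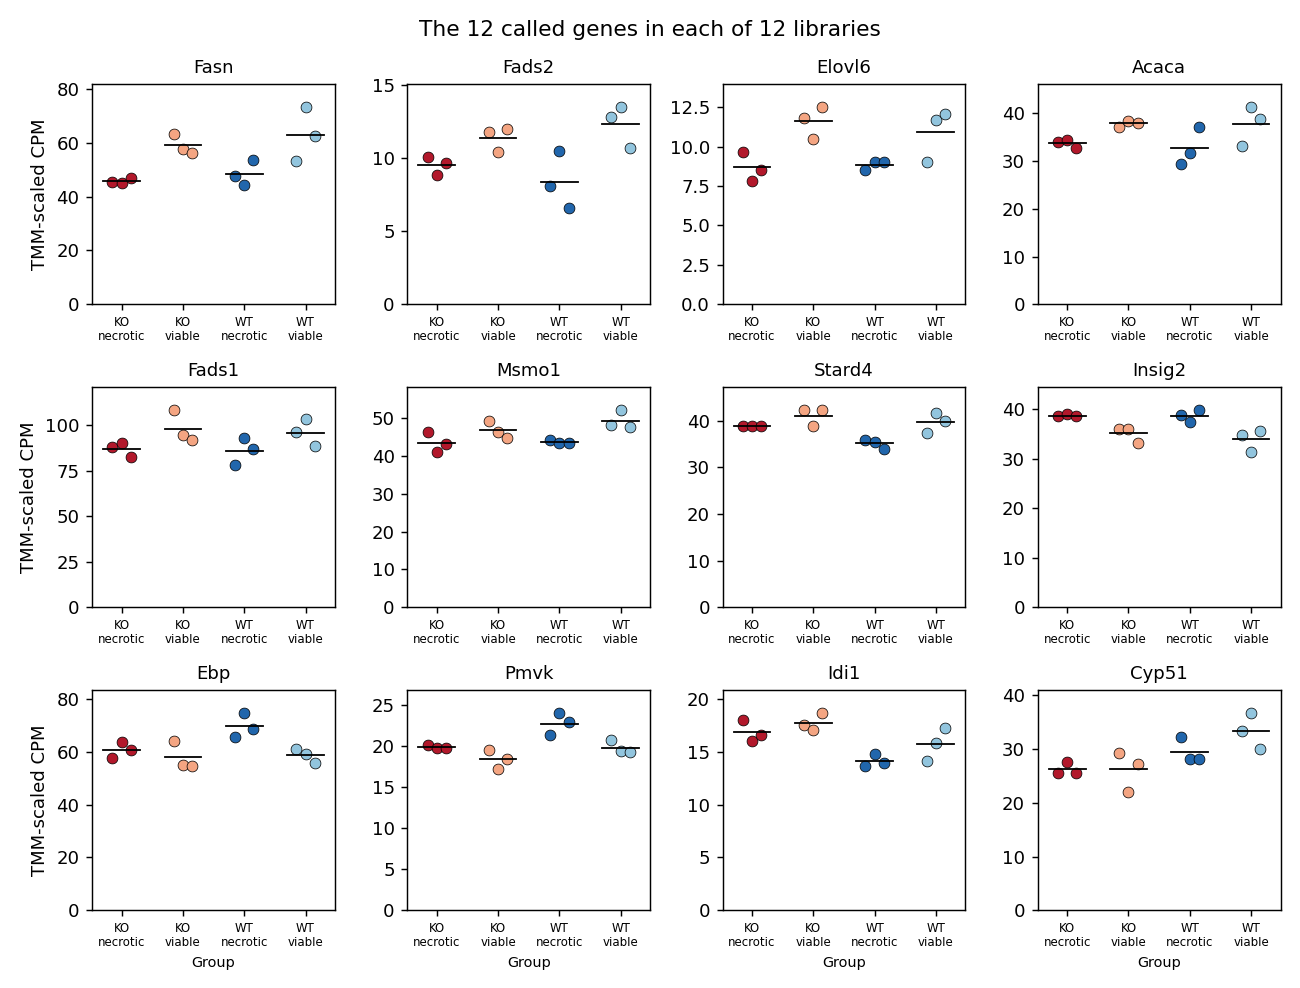
TMM-scaled CPM of the 12 genes that passed in at least 1 comparison, 1 point per library in replicate order from left to right, with a bar for the group mean and axes from 0. The means of necrotic and viable groups lie apart for Fasn, Fads2, Elovl6 and Insig2 in both genotypes. WT viable 2 is the highest point for Fasn (73.2 CPM), Fads2 (13.5 CPM) and Cyp51 (36.6 CPM). Under each supernatant the KO mean lies above the WT mean for Idi1 and below it for Cyp51, while the pooled libraries of the genotypes overlap.

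Promoter windows from 250 bases before to 50 bases after the transcription start, from RefSeq on GRCm38.p6, were found for 25 of the 32 genes. The windows of the 3 genes below are shown because their changes under necrotic supernatant averaged over both genotypes, Fasn and Fads2 lower and Insig2 higher, passed in all 19 alternative analyses of that average. Capitals mark the letters CCAAT, the core of sites for the factor NF-Y, which acts together with SREBP at many of its targets, and GGGCGG, the core of sites for Sp1, each read on either strand. All 3 sequences are given 5′ to 3′ along the gene, which is on the minus strand.
Fasn, chr11:120824498-120824797: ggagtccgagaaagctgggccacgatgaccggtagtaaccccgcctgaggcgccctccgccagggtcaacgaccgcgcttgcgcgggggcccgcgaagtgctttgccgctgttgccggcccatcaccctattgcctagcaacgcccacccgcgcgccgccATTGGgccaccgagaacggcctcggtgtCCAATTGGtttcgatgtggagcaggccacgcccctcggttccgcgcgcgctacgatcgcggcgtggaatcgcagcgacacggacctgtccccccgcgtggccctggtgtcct
Fads2, chr19:10101454-10101753: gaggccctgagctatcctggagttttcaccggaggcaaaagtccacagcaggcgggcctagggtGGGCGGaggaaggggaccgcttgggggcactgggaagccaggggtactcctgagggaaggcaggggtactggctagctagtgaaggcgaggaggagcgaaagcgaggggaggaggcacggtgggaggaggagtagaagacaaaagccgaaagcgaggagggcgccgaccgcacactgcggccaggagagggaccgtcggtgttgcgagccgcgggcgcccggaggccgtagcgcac
Insig2, chr1:121332540-121332839: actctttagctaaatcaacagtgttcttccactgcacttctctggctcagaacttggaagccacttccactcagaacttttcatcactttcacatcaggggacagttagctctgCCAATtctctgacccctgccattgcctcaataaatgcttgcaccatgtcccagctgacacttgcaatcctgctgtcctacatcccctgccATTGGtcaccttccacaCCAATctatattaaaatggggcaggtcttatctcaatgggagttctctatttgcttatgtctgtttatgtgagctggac
The Fasn window held 3 matches to CCAAT, at 90, 62 and 59 bases before the start, the last 2 of which overlap on opposite strands, and none to GGGCGG. The Insig2 window held 3 matches to CCAAT, at 136, 46 and 29 bases before the start. The Fads2 window held 1 match to GGGCGG, 186 bases before the RefSeq start that this window uses, and none to CCAAT. That RefSeq start lies inside the Fads2 gene as placed above (chr19:10062765-10101746), and so does the match. The window of Elovl6, the other gene whose averaged fall passed in all 19, held neither. Taking for each gene the window nearest the annotated start, 19 of 25 (76%) held CCAAT, beside 37.4% of the 32851 windows of all genes, noncoding genes included. GGGCGG also stood in 19 of 25 (76%), beside 35.7% of all windows, and the E-box CACGTG, which SREBP-1 can bind, in 4 of 25 (16%), beside 7.15%. The background counts every window of a gene. Counted in that way, 21 of the 33 windows of these genes held CCAAT (63.6%), 25 held GGGCGG (75.8%) and 6 held CACGTG (18.2%). The sterol regulatory element in its classical spelling was found in 0 of the 33 windows of these genes and in 0.234% of all windows. The LXR element as a direct repeat with a 4-base spacer was also found in 0 of the 33 windows (0.0152% of all windows). A match describes only the letters in these windows, and a missing match says nothing about the factor.

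Between genotypes, averaged over both supernatants, 2 of the 32 genes, Cyp51 and Pmvk, were lower in KO cells and 1, Idi1, was higher. Under each supernatant taken alone, 0 of the 32 genes passed in edgeR's test, beside 8.13% of all genes under necrotic (5.00% higher, 3.12% lower) and 5.84% under viable supernatant (2.87% higher, 2.97% lower). Of the 32, 7 had an unadjusted p under 0.05 under necrotic and 1 under viable supernatant. The share of all genes at this unadjusted threshold is not given here, so these counts are not read against a background. DESeq2 called 1 gene lower under viable and 0 under necrotic supernatant, and limma voom called 0 under either. The 3 genes called in the average (6 KO against 6 WT libraries) made up 9.38% of the 32 beside 20.5% of all genes (10.7% higher and 9.74% lower). The KO libraries lay wholly above the WT ones for 5 genes and wholly below for 4 under necrotic supernatant, where 14.9% and 14.8% of all genes did so. Under viable supernatant 0 lay wholly above and 1 wholly below, Cyp51, where 13.5% and 15.2% of all genes did so. With the 6 libraries of each genotype pooled, 0 of the 32 genes lay wholly above or wholly below, where 2.42% and 1.88% of all genes did so.

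Cyp51 encodes lanosterol 14-alpha-demethylase, the first step after lanosterol. It was at 25.5, 27.5 and 25.6 CPM in KO necrotic libraries and at 32.2, 28.2 and 28.1 CPM in WT necrotic libraries. Under viable supernatant it was at 29.3, 22.0 and 27.3 CPM in KO and at 33.3, 36.6 and 30.0 CPM in WT libraries. KO libraries were below WT libraries under each supernatant without overlap, but the 6 libraries of each genotype overlapped when pooled. Cyp51 fell by 0.25 on the log2 scale averaged over both supernatants (SE 0.0692, adjusted p = 0.0196). Without WT viable 2 the estimate was -0.21 (adjusted p = 0.0527) and without KO necrotic 1 it was -0.24 (adjusted p = 0.0515).

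Idi1 encodes isopentenyl diphosphate isomerase. It was at 18.0, 16 and 16.6 CPM in KO necrotic libraries and at 13.6, 14.8 and 13.9 CPM in WT necrotic libraries. Under viable supernatant it was at 17.5, 17 and 18.6 CPM in KO and at 14.1, 15.8 and 17.2 CPM in WT libraries. The groups were apart under necrotic and overlapped under viable supernatant. Idi1 rose by 0.21 averaged over both supernatants (SE 0.0601, adjusted p = 0.0220), and the call was lost without KO necrotic 1 (adjusted p = 0.0671), KO viable 3 (adjusted p = 0.0616) or WT viable 1 (adjusted p = 0.050, just above the threshold). Pmvk, whose values are given above, fell by 0.15 (SE 0.050, adjusted p = 0.0455), a call lost in 13 of 19 alternative analyses. With the trends with transcript length and GC content removed its estimate shrank to -0.046 (adjusted p = 0.588), and without WT viable 2 it was -0.15 (adjusted p = 0.0723).

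Beside these genotype differences, stromal and osteoblast markers were lower in KO cells for 5 of 5 tested genes, neutrophil markers were lower for 7 of 8, with sums of 885 to 932 CPM in KO necrotic against 1014 to 1155 CPM in WT necrotic and 975 to 1059 CPM in KO viable against 1190 to 1256 CPM in WT viable libraries, and osteoclast markers were lower for 4 of 10. Of the other marker lists, 1 of 3 erythroid, 1 of 5 B and plasma cell and 1 of 8 macrophage markers were higher. Another 1 of the 8 macrophage markers was lower, and 0 of 6 dendritic cell markers passed. Over all genes tested, 10.7% were higher and 9.74% lower in KO cells averaged over both supernatants. The part of these cell types in the differences of Cyp51, Idi1 and Pmvk was not tested.

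**Figure D5:**
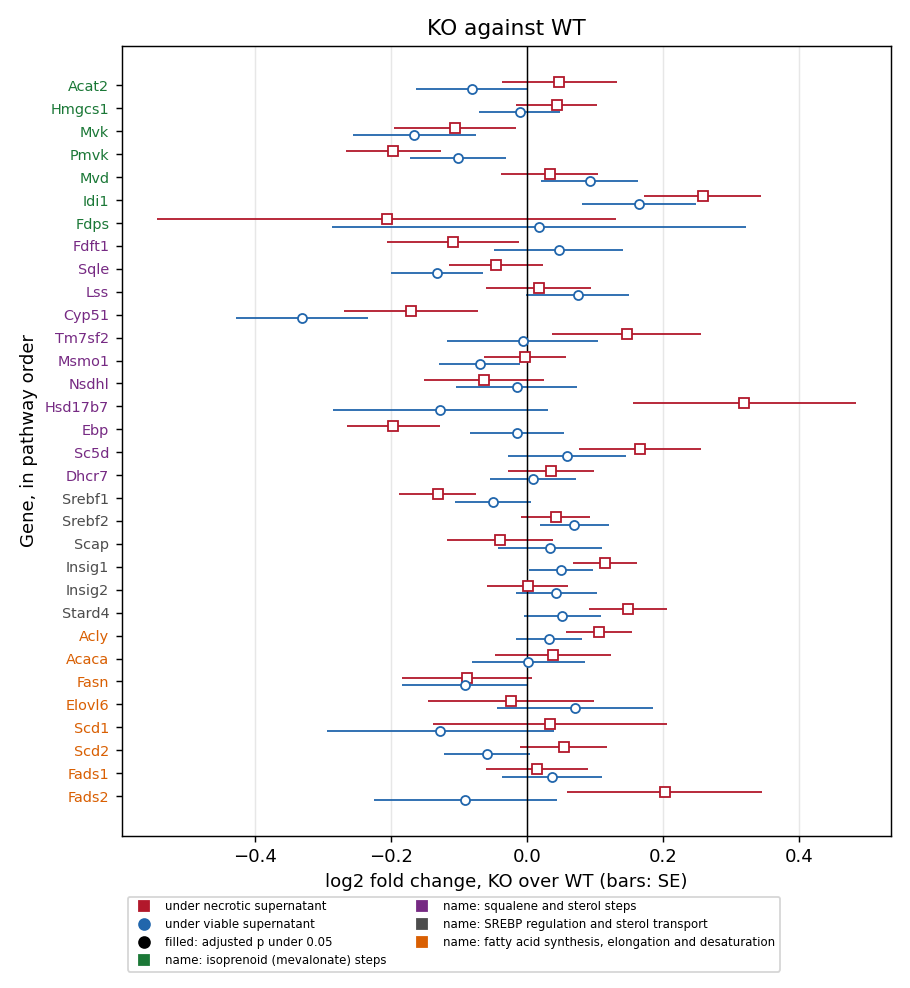
Log2 fold change of KO over WT for each of the 32 genes under necrotic (red squares) and viable (blue circles) supernatant, with bars for the SE. No symbol is filled, since 0 genes passed an adjusted p of 0.05 under either supernatant alone, and Cyp51 and Pmvk lie left of 0 and Idi1 right of 0 under both.

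The test found no gene of the 32 whose response to necrotic supernatant differed between genotypes. The difference of the responses (KO minus WT) passed for 0 of the 32 and for 0.00% of all 14153 genes in edgeR's test, and for 0 genes in DESeq2 and limma voom. Over all genes 1064 had an unadjusted p under 0.05, and none of the 32 did. For Fasn the difference was 0.0031 on the log2 scale with a 95% interval from -0.28 to 0.29. For Elovl6 it was -0.095 (-0.45 to 0.26), for Fads2 0.29 (-0.13 to 0.71) and for Insig2 -0.042 (-0.22 to 0.14). A response absent in KO cells would give a difference of the size of the WT response with the opposite sign. For Fasn and Elovl6 the upper bounds of 0.29 and 0.26 lay below the size of the WT estimates (-0.37 and -0.32), also without WT viable 2 for Fasn (upper bound 0.15, WT estimate -0.26). For Fads2 and Insig2 the intervals include that value (WT estimates -0.55 and 0.19). The WT estimates have their own error (95% intervals -0.57 to -0.17 for Fasn and -0.57 to -0.068 for Elovl6). They are also part of each difference, so this comparison does not decide whether a response was absent in KO cells. In edgeR's test within KO cells, Fasn (-0.369 on the log2 scale, adjusted p = 0.0277) and Elovl6 (-0.415, adjusted p = 0.0444) fell. Both calls were lost without any 1 of the 6 KO libraries. Fads2 and Insig2 did not pass within KO cells (adjusted p = 0.301 and 0.170). The smallest difference of responses that could pass with 3 libraries a group was not tested, and a difference that did not pass does not show equal responses. The largest difference by size was that of Hsd17b7, 0.45 (-0.037 to 0.93, unadjusted p = 0.0680), and without WT viable 2 it was 0.26 (-0.16 to 0.68, unadjusted p = 0.204). Hsd17b7 was at 6.60, 6.55 and 6.52 CPM in KO necrotic and 6.98, 6.36 and 5.87 CPM in KO viable libraries, and at 5.43, 4.52 and 5.76 CPM in WT necrotic and 5.20, 9.11 and 6.80 CPM in WT viable libraries, the 9.11 CPM again in WT viable 2.

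Other genes of the same pathways were examined from lists that hold none of the 32. From the list of sterol synthesis, SREBP processing and sterol uptake, 14 genes are described, of which 13 were tested. This list is not given whole, so its counts are not read against the background. Of the 13, Npc2, a lysosomal sterol carrier gene, rose under necrotic supernatant by 0.20 averaged over both genotypes (SE 0.0348, adjusted p = 0.00109). Between genotypes, Npc1, the membrane partner of Npc2, rose in KO cells by 0.21 averaged over both supernatants (SE 0.0384, adjusted p = 0.00231), Soat1, the cholesterol esterification gene, by 0.16 (SE 0.0346, adjusted p = 0.00572) and Mbtps2, an SREBP protease gene, by 0.14 (SE 0.0425, adjusted p = 0.0319), and Tmem97, whose product binds Npc1, fell by 0.16 (SE 0.0504, adjusted p = 0.0347).

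In the list of other fatty acid and glycerolipid genes, 25 of 28 were tested, and averaged over both genotypes 5 rose (20%, beside 9.49% of all genes) and 1 fell (4%, beside 9.93%) under necrotic supernatant. Hsd17b12, a ketoreductase gene of very long chain elongation, rose by 0.16 (SE 0.0349, adjusted p = 0.00489), Mcat, a mitochondrial fatty acid synthesis gene, by 0.19 (SE 0.0577, adjusted p = 0.0286), and Elovl1, an elongase gene for very long chains, by 0.12 (SE 0.0381, adjusted p = 0.0336). Acsl3, an acyl-CoA synthetase gene, rose by 0.15 (SE 0.0486, adjusted p = 0.0403) and Dgat1, a triglyceride synthesis gene, by 0.17 (SE 0.0560, adjusted p = 0.0490), while Acsl1, another acyl-CoA synthetase gene, fell by 0.14 (SE 0.0373, adjusted p = 0.0183). Between genotypes Hacd2, a dehydratase gene of the elongation cycle, fell in KO cells by 0.24 averaged over both supernatants (SE 0.0636, adjusted p = 0.0158), and Hacd4 rose by 0.16 (SE 0.0501, adjusted p = 0.0346).

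Among 7 genes of the LXR oxysterol receptors and their targets, 2 rose under necrotic supernatant averaged over both genotypes (28.6%, beside 9.49% of all genes) and 0 fell (beside 9.93%). Nr1h3, the gene of LXR-alpha, rose by 0.36 (SE 0.0607, adjusted p = 0.000820) and Apoe, the apolipoprotein E gene, by 0.40 (SE 0.0796, adjusted p = 0.00298), both without overlap of the 6 necrotic and 6 viable libraries. The sterol exporter gene Abca1 did not pass (-0.12 on the log2 scale, SE 0.0756, adjusted p = 0.292). Between genotypes Abca1 rose in KO cells by 0.26 averaged over both supernatants (SE 0.0756, adjusted p = 0.0249), and Mylip, a ubiquitin ligase gene and LXR target, by 0.17 (SE 0.0581, adjusted p = 0.0495).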

How the data were processed

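Messenger RNA was measured in 12 osteoclast libraries by paired-end Illumina sequencing; the labels' protocols name a NEBNext Ultra kit. The authors deposited raw counts per gene, 1 table for 46983 Ensembl identifiers. The submitters' processing notes name GRCm38, HISAT2 2.0.5, HTSeq 0.6.1 and CASAVA. How HTSeq was set (strand, annotation release, ambiguous or multi-mapped reads) is not given in the sources used here. Identifiers were matched to GENCODE M21 (46488 matched, 495 did not).

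Groups and replicate numbers came from the sample titles. Low counts were filtered by edgeR 4.0.16 (filterByExpr, R 4.3.3), leaving 14153 genes and at least 99.92% of counts. Counts were then scaled with TMM factors (0.9706 to 1.020) and fitted jointly by quasi-likelihood (4 group means, 8 residual degrees of freedom). The biological coefficient of variation was 7.18%. The 7 comparisons were necrotic against viable supernatant in KO, in WT and averaged, KO against WT under each supernatant and averaged, and the difference of the responses. Comparisons of supernatants and of genotypes share libraries. Tests were two-sided, adjusted by Benjamini-Hochberg over the 14153 genes, with 0.05 as the threshold; every adjusted p is from this test unless another is named. The SE is the size of the log2 fold change over the square root of F. "Apart" or "without overlap" means that all libraries of 1 group lay above all of the other. Between replicates the chi-square of the counts per degree of freedom was 3.22 to 22.7, above sampling noise in every pair. A count of 0 allows up to 3 counts, or 0.0605 to 0.183 CPM, counting error only.

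The members, lists, motifs and tests were chosen with earlier results of these data known. Values in every library are given for genes with an adjusted p under 0.05 in at least 1 comparison, and for Hsd17b7, chosen after its values were seen; of each further list up to 5 called genes are named, by smallest p, and the other called genes and Abca1 were added after their values were seen. Some genes of the further sterol list are not reported here. The steps were tested on simulated counts. Alternatives were median-ratio (RLE) factors, DESeq2 1.42.0, limma 3.58.1 voom, other filters, the replicate number as a block, fits with the compared groups alone, removal of trends with transcript length and GC content, and leaving out each library.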

Additional observations from a re-analysis of the deposited data

How the results depend on the processing

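Of the 18 calls described for single genes none reversed direction under any alternative. The averaged falls of Fasn (log2 fold change -0.42 to -0.31), Elovl6 (-0.42 to -0.32) and Fads2 (-0.50 to -0.32) and the averaged rise of Insig2 (0.14 to 0.18) passed in 19 of 19, and the cause of the lost calls of other genes was not tested. Counts of the 32 genes moved as follows. With length and GC trends removed, 0 rose under necrotic supernatant in WT cells and 1 averaged over both genotypes, and 3 were higher in KO averaged over both supernatants. With only the compared groups in the fit, 0 rose and 0 fell in WT cells. In KO against WT averaged over both supernatants 1 was lower with DESeq2, with no filter and with the replicate block; under viable supernatant 1 was lower with DESeq2, with no filter and with a filter of 5 CPM in 3 libraries; and under necrotic supernatant 1 was lower with no filter. With the replicate block 1 fell under necrotic supernatant in KO cells. Deviations of libraries that share a replicate number correlated between -0.251 and 0.142. With 3 libraries a group these values give no clear sign of pairing and cannot exclude it, and the block says nothing about the size of an effect.

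Leaving out single libraries gave 0 to 1 higher and 0 to 6 lower under necrotic supernatant in WT cells, 0 and 0 to 2 in KO cells, and 1 to 3 and 3 to 8 averaged. The 6 came without WT viable 1, and the 0 without WT viable 2 or WT necrotic 1. The count of 0 in KO cells came without any 1 of the 6 KO libraries. KO against WT gave 0 and 0 to 1 under viable supernatant, 0 to 1 and 0 under necrotic supernatant, and 0 to 2 and 0 to 3 averaged, and the difference of responses gave 0 each.

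Over all genes, with only the compared groups 213 were higher and 146 lower in WT cells under necrotic supernatant (681 and 637 in the joint fit), 977 and 843 in KO cells (566 and 486), and 243 and 206 in KO against WT under viable supernatant (406 and 421). With no filter 1027 were lower under necrotic supernatant in WT cells (637), 822 higher and 796 lower in KO against WT under viable supernatant, 1158 and 699 under necrotic supernatant (708 and 442), and 147 and 62 for the difference of responses (0 and 0). DESeq2 called 627 higher in KO under viable supernatant, and removing length and GC trends left 389 higher under necrotic supernatant. Depth limits Fdps most, at 0.580 to 1.46 CPM.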
